A study of Mus musculus with 10 samples.

Results

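Ileal crypts of mice carried transcripts of 52 genes of the enzyme families that modify drugs, toxins and dietary chemicals, out of 119 protein-coding genes of these families by symbol. They were the cytochrome P450 genes whose symbols start with Cyp1a, Cyp1b, Cyp2, Cyp3a or Cyp4 (Cyp20, Cyp21, Cyp24, Cyp26, Cyp27 and Cyp46 left out), the UDP-glucuronosyltransferase genes starting with Ugt1a or Ugt2, and the genes starting with Gst. A gene was kept when its TPM, a length-corrected share of all transcripts in a library, was at least 1 in at least 2 of the 10 libraries. The same minimum left 13056 of the 28987 gene IDs in the files for testing. With the OE libraries left out Cyp3a44 and Cyp4f18 would not meet the minimum, and Cyp2c40 would not without the KO libraries, nor Cyp2c40 and Cyp3a44 without the Ctrl libraries. Of the family genes not kept, 18 were listed at 0 in every library and 49 lay above 0 but under the minimum. The 52 genes comprised 12 of 46 Cyp2 genes, 4 of 9 Cyp3a genes, 7 of 20 Cyp4 genes, 4 of 9 Ugt1a genes, 5 of 9 Ugt2 genes, 3 of 4 Gsta genes, 7 of 7 Gstm genes, 3 of 3 Gstp genes, 3 of 4 Gstt genes and 4 of 5 other Gst genes, with 0 of the 3 Cyp1 genes.

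The study set mice lacking or overexpressing Stat5 against wild-type mice. The KO group had 2 libraries (VilCreER;Stat5, STAT5IEC-/-), the OE group 5 libraries (VilCreER;icS5, STAT5IEC+++) and the Ctrl group 3 libraries (VilCreER;Stat5, STAT5+/+). All mice were labelled C57Bl6, male and 12 weeks old. VilCreER is a Cre recombinase under the villin promoter that acts in the intestinal epithelium once induced; when it was induced is not given in the sources used here, the labels do not spell out icS5, and no control of the icS5 line was analysed here. The labels do not say whether each library is a different animal; p-values therefore speak only of the spread among these libraries, part of which may be technical.

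Cytochrome P450 enzymes of the families named here oxidise foreign chemicals, fatty acids and steroids at the endoplasmic reticulum. UDP-glucuronosyltransferases then attach glucuronic acid, and glutathione S-transferases attach glutathione, which makes the products soluble and ready for export. In the small intestine these genes are read mostly in absorptive enterocytes, under nuclear receptors such as PXR, CAR and HNF4A, the aryl hydrocarbon receptor and NRF2, and in mouse liver STAT5B carries the growth hormone signal that gives many P450 genes their sex-biased levels.

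A library that stands apart bears on nearly every value below. In Ctrl 2, mitochondrially encoded transcripts took 83.7% of all TPM, against 43.3 to 57.0% in the other libraries, and 8263 genes reached 1 TPM, against 11050 to 11932. Levels below are scaled TPM, the deposited TPM over a median-ratio factor per library (from 11146 genes with no 0 value). The factor of Ctrl 2 was 0.295, so its scaled values are over 3 times its deposited ones, and the other factors lay between 0.831 and 1.31. The summed level of 16 enterocyte markers was 2336 and 3560.5 scaled TPM in KO, 10159, 3234, 4693, 1508 and 4614 scaled TPM in OE and 4679.5, 18701 and 2242 scaled TPM in Ctrl. The 8 measured of 9 Paneth cell markers summed to 422 scaled TPM in Ctrl 2 and to at least 3839.8 scaled TPM in each other library. On these scaled values Ctrl 2 thus had the highest enterocyte and the lowest Paneth sum. On the deposited TPM its enterocyte sum was below those of OE 1 and Ctrl 1. The library labelled OE 1 had Stat5a at 1.56 and Stat5b at 1.49 scaled TPM, within the Ctrl range of 1.07 to 2.60 for Stat5a and 0.970 to 1.76 for Stat5b, and Ctrl 3, OE 3 and OE 4 had Y-linked sums of 0.140 to 3.45 TPM, against 32.3 to 131 TPM elsewhere, although labelled male. In such bulk samples fewer cells of a type and less RNA per cell cannot be told apart.

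The 52 genes summed to 959.8 and 1109 scaled TPM in KO, 1618, 799, 1173, 607 and 857 scaled TPM in OE and 1444, 6842 and 749 scaled TPM in Ctrl. Ctrl 2 stood well above every other library, and without it the groups overlapped. The margin was small on the deposited TPM, where the sums were 1160.3 and 1162 TPM in KO, 1345, 1044, 1374, 719.6 and 957 TPM in OE and 1762, 2015 and 977 TPM in Ctrl. As a share of the TPM not encoded in mitochondria, which needs no scaling factor, the sums were 0.235 and 0.256% in KO, 0.317, 0.188, 0.309, 0.161 and 0.181% in OE, and 0.361, 1.24 and 0.182% in Ctrl. On the scaled values Ctrl 2 was the highest library for 40 of the 52 genes (76.9%), against 23.5% of all 13056 genes tested. On the deposited TPM it was the highest for 14 of 52 (26.9%), against 1.62% of all genes. Single genes also spread widely: the log2 range over the 10 libraries had a median of 2.80 for the enzyme genes and of 1.52 for all genes tested, and without Ctrl 2 these medians were 1.81 and 1.25. The narrowest range was 0.81 (Gstz1, an enzyme of tyrosine breakdown) and the widest 10.3 (Cyp3a11).

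**Figure D1:**
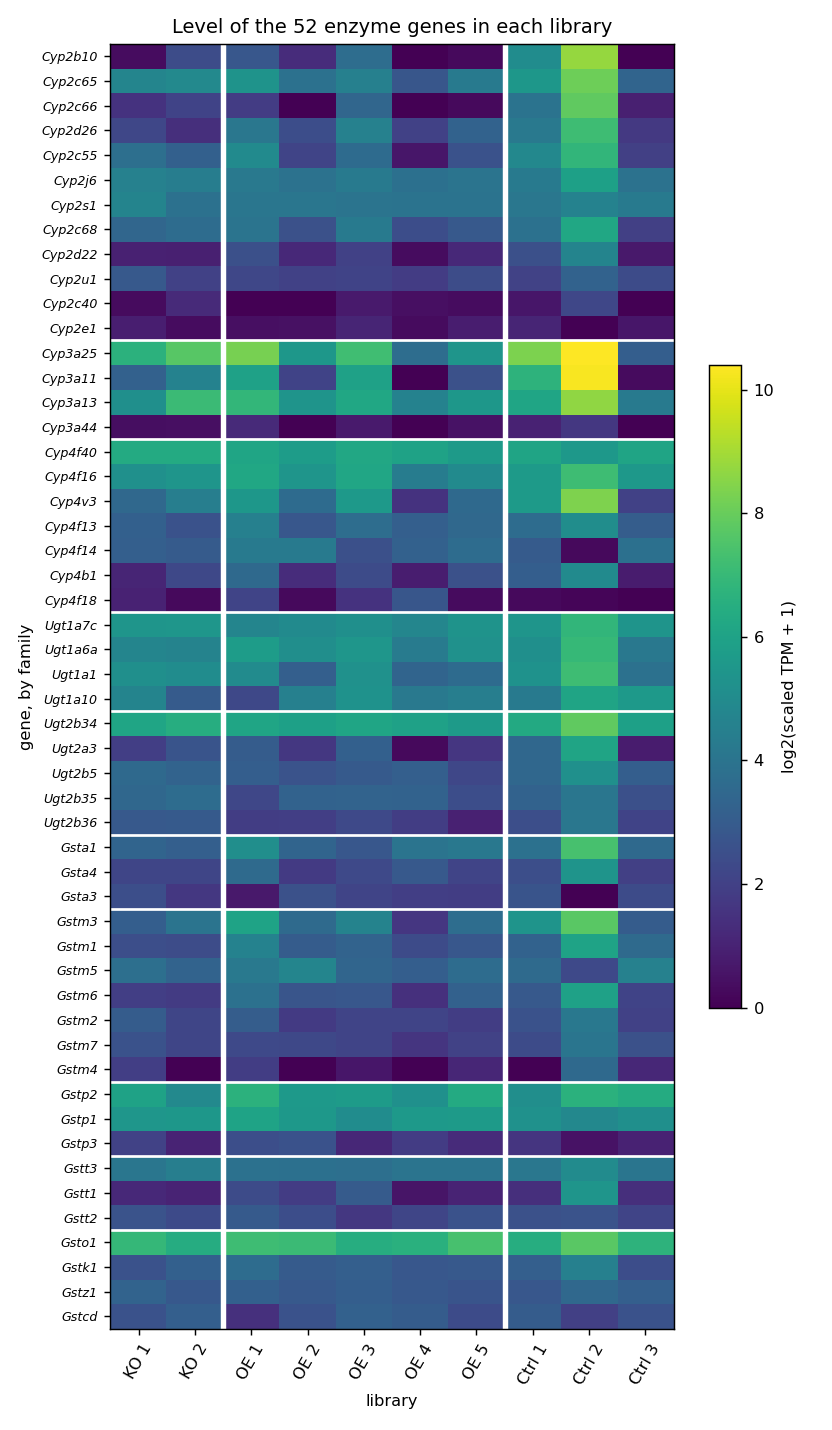
Level of each of the 52 enzyme genes (down the page, by family, white lines between families) in each library (across, KO, OE and Ctrl from left to right), as log2(scaled TPM + 1) in colour. The Ctrl 2 column is the brightest for most P450 and Ugt genes, the highest of the 10 libraries for 40 of 52 genes, while Gstp1, Gstp3, Cyp4f14, Gsta3 and Gstm5 are lowest there.

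The genes that classically report aryl hydrocarbon receptor activity were close to absent, apart from Cyp1a1 in Ctrl 2. Their levels are given as deposited TPM. Cyp1a1, the standard target of that receptor, had 3.19 TPM in Ctrl 2 and at most 0.0354 TPM in every other library. Cyp1a2 was listed at 0 in all 10 libraries. Cyp1b1 had 0.698 and 0.278 TPM in KO, 0.315, 0.124, 0.156, 0 and 0.0160 TPM in OE and was listed at 0 in the 3 Ctrl libraries, all under the minimum of 1 TPM.

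The Cyp3a enzymes oxidise a broad range of drugs and steroids. Cyp3a25 had the highest mean of the 52 genes, at 255 scaled TPM with all libraries and 133 without Ctrl 2, while that of Cyp3a11 was 153 with all libraries and 29.7 without Ctrl 2, below Gsto1 (114), Cyp4f40 (66.9) and Ugt2b34 (66.5). Cyp3a25 (chromosome 5, 145977194 to 146009618, minus strand) had 102 and 207 scaled TPM in KO, 307, 43.9, 149, 12.1 and 41.6 scaled TPM in OE and 328, 1348 and 7.64 scaled TPM in Ctrl. Cyp3a11, the best known PXR target of the mouse, had 8.29 and 23.4 scaled TPM in KO, 61.0, 3.23, 60.5, 0 and 4.91 scaled TPM in OE and 106, 1259 and 0.243 scaled TPM in Ctrl. Both genes overlapped fully between the groups: the highest and the lowest scaled Cyp3a25 levels of all libraries were in Ctrl 2 and Ctrl 3, and on the deposited TPM in Ctrl 1 and Ctrl 3.

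Cyp3a13, another Cyp3a gene of the gut, had 35.5 and 135 scaled TPM in KO, 116, 40.2, 72.1, 23.1 and 44.4 scaled TPM in OE and 68.9, 401 and 18.1 scaled TPM in Ctrl. Cyp3a44 stayed at or below 2.19 scaled TPM. Log2 differences of KO against Ctrl were -0.10 for Cyp3a25 (95% interval -4.16 to 3.97), -1.87 for Cyp3a11 (-7.49 to 3.74) and -0.20 for Cyp3a13 (-2.65 to 2.24). None of the 3 passed the limma test, and the intervals span several doublings either way. Without Ctrl 2 the value was 1.47 for Cyp3a25, 0.45 for Cyp3a11 and 0.95 for Cyp3a13, all positive. For OE against Ctrl, Cyp3a25 had -1.27, Cyp3a11 -2.48 and Cyp3a13 -0.64 with all libraries, and 0.29, -0.20 and 0.51 without Ctrl 2. Reads of Cyp3a paralogs are alike, and how they were divided between copies is not given in the sources used here, so single genes are uncertain, as they are for the Cyp2c, Ugt2b, Gstm and Gstp genes.

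**Figure D2:**
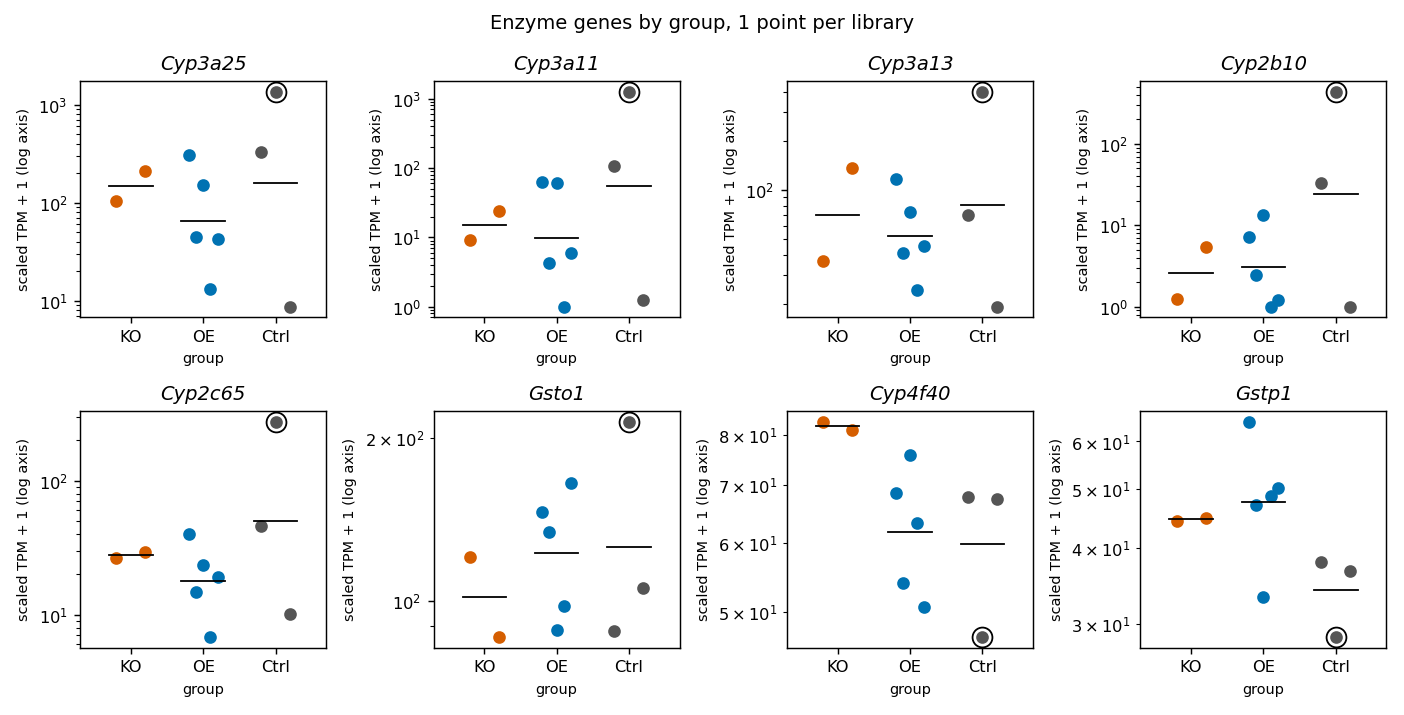
Scaled TPM + 1 (log axis) of 8 enzyme genes by group, 1 point per library, with Ctrl 2 ringed and a bar at the group's mean on the log scale. Ctrl 2 lies at the top for Cyp3a25, Cyp3a11, Cyp3a13, Cyp2b10, Cyp2c65 and Gsto1 and at the bottom for Cyp4f40 and Gstp1; on the deposited TPM it is the highest for only Cyp3a11, Cyp2b10 and Cyp2c65, and the lowest for Gsto1.

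Summed over the 4 Cyp3a genes, the level was 146 and 366 scaled TPM in KO, 486, 87.3, 282, 35.2 and 91.3 scaled TPM in OE and 504, 3011 and 26.0 scaled TPM in Ctrl. On the scaled values the 2 lowest sums were those of OE 4 and Ctrl 3, which also had the 2 lowest enterocyte marker sums. Ctrl 2 had the highest Cyp3a and enterocyte sums on that scale. Set per 1000 scaled TPM of the enterocyte markers, a ratio chosen after the data were seen and free of the scaling factor, the Cyp3a sum was 62.6 and 103 in KO, 47.8, 27.0, 60.1, 23.3 and 19.8 in OE and 108, 161 and 11.6 in Ctrl. On this ratio both KO libraries lay above all 5 OE libraries, by 62.6 against 60.1 at the nearest pair, and Ctrl spanned both groups. Cyp3a11 alone still ranged on this ratio from 0 in OE 4 to 67.3 in Ctrl 2. The part of the enterocyte share in these levels was not tested.

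The Cyp2 genes, which include CAR targets and fatty acid epoxygenases, were highest in Ctrl 2 for 10 of 12 on the scaled values and for 6 of 12 on the deposited TPM. Cyp2b10, the classical CAR target of mouse liver, had 0.259 and 4.35 scaled TPM in KO, 6.12, 1.49, 12.3, 0 and 0.218 scaled TPM in OE and 32.0, 436 and 0 scaled TPM in Ctrl. It thus ran over all libraries from 0 in OE 4 and Ctrl 3 to its level in Ctrl 2. Cyp2c65, which metabolises arachidonic acid and is typical of the gut, had 25.3 and 28.6 scaled TPM in KO, 39.0, 13.9, 22.4, 5.82 and 18.1 scaled TPM in OE and 45.0, 274 and 9.15 scaled TPM in Ctrl. Cyp2d26 had 3.68 and 1.64 scaled TPM in KO, 16.5, 4.54, 23.1, 3.05 and 8.64 scaled TPM in OE and 17.6, 142 and 2.27 scaled TPM in Ctrl, so KO lay at the low end and overlapped with Ctrl 3. Cyp2e1, the ethanol-oxidising P450 of the liver, was barely above the minimum, with 0.0285 to 1.14 scaled TPM.

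Cyp2c66 had 1.90 and 3.25 scaled TPM in KO, 2.62, 0.0195, 9.70, 0 and 0.189 scaled TPM in OE and 14.6, 229.9 and 0.879 scaled TPM in Ctrl, far highest in Ctrl 2. Cyp2c29, a Cyp2c gene that did not meet the minimum, reached 11.5 TPM in Ctrl 2 and at most 0.118 TPM elsewhere, both as deposited and not scaled. The Cyp2 genes not highest in Ctrl 2 were Cyp2s1, an epithelial P450 at 24.8 and 13.5 scaled TPM in KO, 15.7, 15.8, 15.1, 14.8 and 14.6 scaled TPM in OE and 16.3, 23.3 and 18.1 scaled TPM in Ctrl, and Cyp2e1. Of the 8 hepatocyte markers Alb, Ahsg and Fgb were listed at 0 in all libraries. Apoa2 had 6.89 scaled TPM in Ctrl 2 and at most 0.473 elsewhere, Ttr and Serpina1a stayed at or under 1.16 scaled TPM and Tat at or under 6.96. Cps1, which the small intestine also expresses, had 208 and 417 scaled TPM in KO, 102.6 to 292 in OE and 68.6 to 315 in Ctrl. The whole list summed to 211 and 421 scaled TPM in KO, 106 to 294 in OE and 76.2 to 318 in Ctrl, with Ctrl 2 lowest; its part in the Cyp2c29 level was not tested. Cyp2c29, Cyp2s1 and Cyp2c66 were named after their values were seen.

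The Cyp4 genes, omega-hydroxylases of fatty acids and eicosanoids, did not share 1 pattern. Cyp4f40 (chromosome 17, 32658900 to 32676914, plus strand) had 81.7 and 80.0 scaled TPM in KO, 67.6, 53.0, 74.7, 62.3 and 49.7 scaled TPM in OE and 66.8, 45.8 and 66.4 scaled TPM in Ctrl. Both KO libraries lay above every OE and Ctrl library on this scale but not on the deposited TPM, and Ctrl 2 was the lowest of all 10 on both. Cyp4f16 had 35.9 and 42.3 scaled TPM in KO, 71.5, 42.2, 70.7, 19.9 and 30.5 scaled TPM in OE and 49.9, 142 and 46.1 scaled TPM in Ctrl, and Cyp4v3, the mouse counterpart of human CYP4V2, had 10.5 and 21.01 scaled TPM in KO, 45.0, 11.5, 48.3, 1.89 and 10.7 scaled TPM in OE and 49.7, 330.0 and 2.98 scaled TPM in Ctrl. Both had their highest level in Ctrl 2 and their lowest in OE 4; on the deposited TPM Cyp4f16 was highest in OE 3. Cyp4f14, in contrast, was lowest in Ctrl 2 at 0.192 scaled TPM and lay between 4.78 and 18.0 elsewhere; it was named after its values were seen.

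Cyp4f18, which inactivates leukotriene B4 and is known from neutrophils of the mouse, was near 0 in most libraries, with 0.974 and 0.202 scaled TPM in KO, 3.38, 0.202, 1.85, 5.82 and 0.235 scaled TPM in OE and 0.200, 0.105 and 0 scaled TPM in Ctrl. All OE libraries lay above all Ctrl libraries, but 2 of the 5 barely, and OE 4, OE 1 and OE 3 carried the difference. Since Cyp4f18 met the minimum through these OE libraries, its place above Ctrl follows in part from how the genes were kept. The 10 leukocyte markers summed to 474 to 648 scaled TPM in KO, 544 to 1040.0 in OE and 377 to 471 in Ctrl, most of it Cd74, with OE 1 highest. Single markers peaked in different libraries. Ptprc (4.11 scaled TPM), Cd79a (8.52) and Jchain (112) were highest in OE 4. Cd3e (22.0) and Cd8a (13.6) were highest in OE 5, and Cd74 (794) and Lyz2 (193) in OE 1. Csf1r (2.93) and Adgre1 (0.921) were highest in KO 1, and Itgam (8.83) in KO 2. The part of the leukocyte markers in the Cyp4f18 level was not tested.

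The Ugt1a genes share their last exons: on chromosome 1 the 4 genes start between 88055388 and 88211959 and all end between 88218997 and 88220002, so the split of reads among them is uncertain. Ugt1a1, the enzyme that conjugates bilirubin, had 35.6 and 32.5 scaled TPM in KO, 31.1, 7.87, 37.4, 9.07 and 11.5 scaled TPM in OE and 38.6, 144 and 13.6 scaled TPM in Ctrl. Ugt1a6a, which conjugates small phenols, had 25.8 and 24.1 scaled TPM in KO, 52.4, 33.9, 42.7, 19.0 and 37.6 scaled TPM in OE and 35.7, 125 and 16.8 scaled TPM in Ctrl, and here KO lay within the OE range and near its low end. Ugt1a7c had 42.0 and 43.5 scaled TPM in KO, 25.9, 30.4, 34.9, 26.3 and 39.0 scaled TPM in OE and 41.9, 113 and 40.7 scaled TPM in Ctrl. All 5 OE libraries lay below both KO and all 3 Ctrl libraries, which did not separate from each other. Ugt1a10 ranged from 3.81 to 66.9 scaled TPM. All 4 genes were highest in Ctrl 2 on the scaled values, and 0 of 4 were on the deposited TPM.

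The 5 Ugt2 genes lie together on chromosome 5, between 86889767 and 87337195. Their enzymes glucuronidate steroids, bile acids and many drugs. Ugt2b34, the most abundant, had 68.1 and 88.6 scaled TPM in KO, 67.4, 59.8, 67.9, 60.3 and 49.5 scaled TPM in OE and 78.4, 233 and 58.5 scaled TPM in Ctrl. Ugt2b36 had 6.53 and 6.70 scaled TPM in KO, 2.74, 2.83, 3.88, 2.69 and 0.942 scaled TPM in OE and 4.63, 16.2 and 3.29 scaled TPM in Ctrl. Ugt2b35 had 10.1 and 11.7 scaled TPM in KO, 3.68, 8.63, 8.85, 8.61 and 4.44 scaled TPM in OE and 8.52, 16.04 and 4.76 scaled TPM in Ctrl. In each of these 3 genes every OE library was below both KO libraries, by a wide margin for Ugt2b36 and by 67.9 against 68.1 scaled TPM at the nearest pair for Ugt2b34.

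Ugt2b5 showed the same order, with 10.7 and 8.91 scaled TPM in KO, 7.74, 5.39, 6.63, 7.81 and 3.63 scaled TPM in OE and 10.2, 36.4 and 7.67 scaled TPM in Ctrl. Ugt2a3 did not separate the groups, with 2.79 and 5.43 scaled TPM in KO, 7.04, 2.22, 7.99, 0.208 and 2.12 scaled TPM in OE and 10.1, 67.0 and 0.738 scaled TPM in Ctrl. On the scaled values all 5 Ugt2 genes were highest in Ctrl 2, and on the deposited TPM only Ugt2a3 was. On the deposited TPM the same 4 Ugt2b genes had every OE library below both KO libraries, so their order did not rest on the scaling. The 5 genes summed to 98.3 and 121 scaled TPM in KO, 88.6, 78.9, 95.2, 79.6 and 60.7 scaled TPM in OE and 112, 368 and 74.9 scaled TPM in Ctrl, and OE again lay below KO. Per 1000 scaled TPM of enterocyte markers the sum was 42.1 and 34.1 in KO, 8.72, 24.4, 20.3, 52.8 and 13.1 in OE and 23.9, 19.7 and 33.4 in Ctrl, and on that ratio OE and KO overlapped through OE 4.

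**Figure D3:**
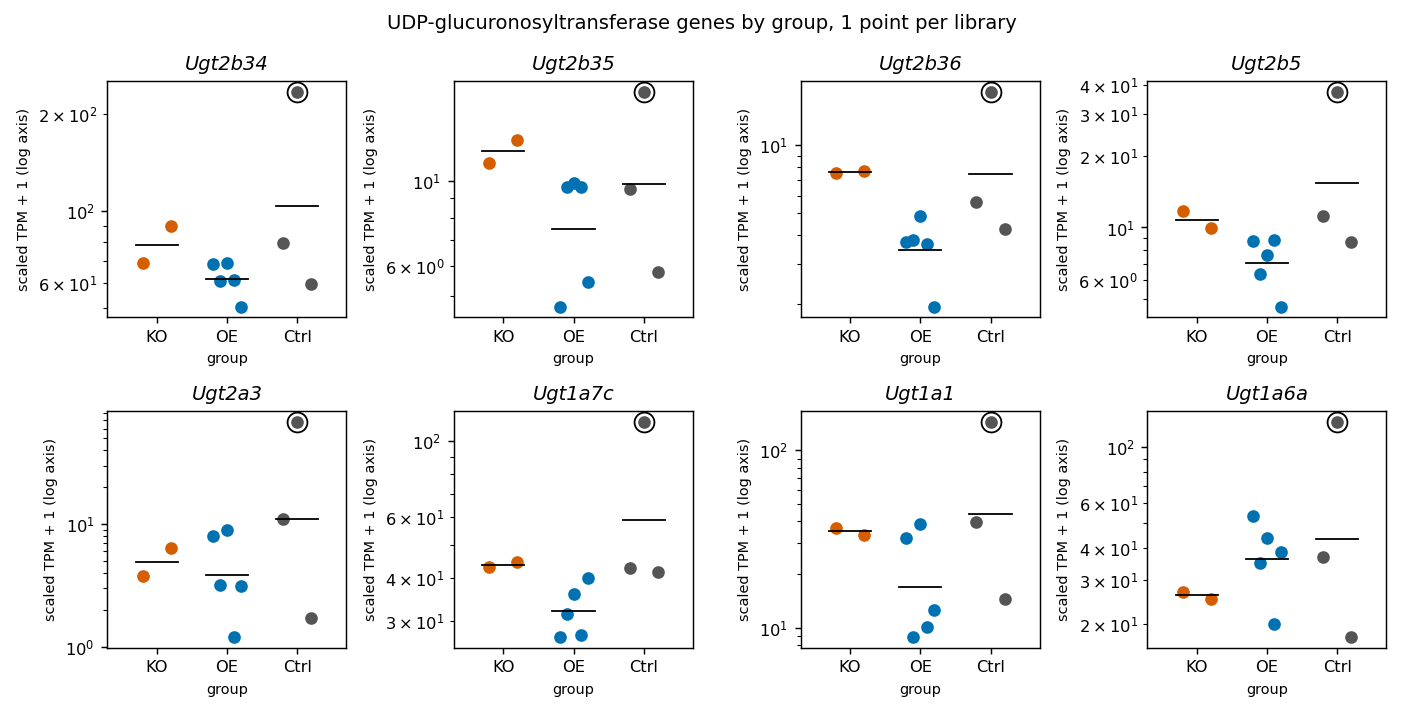
Scaled TPM + 1 (log axis) of 8 UDP-glucuronosyltransferase genes by group, 1 point per library, with Ctrl 2 ringed and a bar at the group's mean on the log scale. For Ugt2b34, Ugt2b35, Ugt2b36, Ugt2b5 and Ugt1a7c all 5 OE points lie below both KO points, while Ugt2a3, Ugt1a1 and Ugt1a6a overlap.

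The promoters of the 4 Ugt2b genes are shown because the genes stood in the same order. They are the 250 bases before the start, read on the gene's strand from RefSeq on GRCm38.p6, for Ugt2b34 at chr5:86906938-86907187 on the minus strand, for Ugt2b35 at chr5:87000610-87000859 on the plus strand, for Ugt2b36 at chr5:87092556-87092805 on the minus strand and for Ugt2b5 at chr5:87140341-87140590 on the minus strand. Capitals mark GTTANANTTTAAC, the window of 13 bases most alike in the 4 sequences. It was looked for after they were seen, so its presence in them is no finding. Its outer letters, GTTA and TAAC, are also the ends of the known HNF1 binding site.
Ugt2b34: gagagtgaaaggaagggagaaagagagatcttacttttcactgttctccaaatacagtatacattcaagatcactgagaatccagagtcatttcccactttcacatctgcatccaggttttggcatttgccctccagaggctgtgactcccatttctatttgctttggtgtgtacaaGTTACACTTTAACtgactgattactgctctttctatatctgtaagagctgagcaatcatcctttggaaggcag
Ugt2b35: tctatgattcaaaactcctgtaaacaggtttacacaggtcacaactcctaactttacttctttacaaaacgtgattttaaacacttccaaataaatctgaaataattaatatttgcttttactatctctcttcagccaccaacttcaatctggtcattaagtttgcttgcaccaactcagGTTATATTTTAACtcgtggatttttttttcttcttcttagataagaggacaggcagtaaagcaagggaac
Ugt2b36: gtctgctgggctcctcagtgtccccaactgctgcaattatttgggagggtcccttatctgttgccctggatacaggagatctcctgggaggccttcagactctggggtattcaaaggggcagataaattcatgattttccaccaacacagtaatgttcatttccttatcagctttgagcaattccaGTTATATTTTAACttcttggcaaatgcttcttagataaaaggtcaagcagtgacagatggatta
Ugt2b5: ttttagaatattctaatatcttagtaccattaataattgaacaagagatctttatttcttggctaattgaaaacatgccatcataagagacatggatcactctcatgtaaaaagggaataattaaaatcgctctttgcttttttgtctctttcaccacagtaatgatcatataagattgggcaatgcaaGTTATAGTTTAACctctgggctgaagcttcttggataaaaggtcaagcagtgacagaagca
The match began at base -73 before the start in Ugt2b34, at -70 in Ugt2b35, at -64 in Ugt2b36 and at -61 in Ugt2b5. On both strands of all 32851 promoters, 10 (0.0304%) held this window, and 6 of these belonged to the 7 Ugt2b genes with an entry. Of the 48 enzyme genes of 52 with an entry, only the 4 shown did, while Ugt2b37 and Ugt2b38, which held it too, did not meet the minimum level in these crypts. The window was defined on the 4 shown, and Ugt2b37 and Ugt2b38 are their paralogs, so these counts cannot measure enrichment. Cyp2u1, Cyp2d22, Gsta4 and Gstt2 are the enzyme genes not matched. Whether a factor binds there was not measured.

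The Gst genes split into those that followed Ctrl 2 and those that did not. Gsto1, an omega-class enzyme that also reduces dehydroascorbate, had 119 and 84.9 scaled TPM in KO, 145, 133, 87.6, 97.0 and 164 scaled TPM in OE and 87.3, 213 and 105 scaled TPM in Ctrl, with overlap of all groups. Ctrl 2 was the highest library for Gsto1 on the scaled values and the lowest on the deposited TPM. The pi-class gene Gstp1 had 43.3 and 43.9 scaled TPM in KO, 63.6, 46.2, 32.2, 47.8 and 49.2 scaled TPM in OE and 37.0, 27.5 and 35.7 scaled TPM in Ctrl, and both KO libraries and 4 of 5 OE libraries lay above all Ctrl libraries. Its neighbour Gstp2 had 62.6 and 28.9 scaled TPM in KO, 103, 47.8, 51.1, 36.4 and 82.1 scaled TPM in OE and 33.9, 99.9 and 83.8 scaled TPM in Ctrl, with full overlap. Gstp3 had 3.20 and 1.05 scaled TPM in KO, 4.61, 5.17, 1.22, 2.60 and 1.45 scaled TPM in OE and 2.08, 0.437 and 0.997 scaled TPM in Ctrl. None of the 3 Gstp genes was highest in Ctrl 2, where Gstp1 and Gstp3 were lowest (all 3 on the deposited TPM); their sum ranged from 72.9 to 171 scaled TPM over the 10 libraries while the enterocyte sum ran from 1508 to 18701.

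The mu-class genes, which conjugate epoxides and other electrophiles, were highest in Ctrl 2 for 6 of 7 on the scaled values and for 2 of 7, Gstm3 and Gstm6, on the deposited TPM. Gstm3 had 7.55 and 15.1 scaled TPM in KO, 63.8, 11.1, 24.0, 2.11 and 12.1 scaled TPM in OE and 41.3, 212 and 7.17 scaled TPM in Ctrl. Gstm1 had 4.70 and 4.32 scaled TPM in KO, 23.2, 7.12, 8.86, 4.26 and 5.999 scaled TPM in OE and 8.52, 64.9 and 11.2 scaled TPM in Ctrl, so both KO libraries lay below all Ctrl libraries, though OE 4 was lower still. Gstm6 had 2.80 and 2.50 scaled TPM in KO, 13.6, 5.76, 6.11, 1.69 and 8.41 scaled TPM in OE and 6.54, 61.4 and 3.28 scaled TPM in Ctrl, again with KO below Ctrl. Gstm7 had 5.22 and 3.48 scaled TPM in KO, 3.84, 3.75, 3.38, 2.05 and 3.18 scaled TPM in OE and 4.26, 15.4 and 4.95 scaled TPM in Ctrl, and here OE lay below all Ctrl libraries. Gstm5 was the exception, lowest in Ctrl 2 at 3.93 and otherwise between 7.50 and 25.5 scaled TPM.

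The alpha-class gene Gsta1, whose enzyme also removes lipid peroxides, had 9.31 and 7.75 scaled TPM in KO, 34.7, 9.30, 5.98, 15.0 and 17.2 scaled TPM in OE and 13.9, 166 and 10.8 scaled TPM in Ctrl. Both KO libraries lay below all Ctrl libraries, and OE spanned both groups. Gsta3 was listed at 0 in Ctrl 2 and had at most 5.42 scaled TPM. Theta-class Gstt3 had 15.7 and 20.5 scaled TPM in KO, 13.7, 13.3, 12.98, 14.8 and 15.1 scaled TPM in OE and 16.6, 31.1 and 15.6 scaled TPM in Ctrl, with every OE library below both KO and all Ctrl libraries. The remaining Gst genes, Gsta4, Gstm2, Gstm4, Gstt1, Gstt2, Gstk1, Gstz1 and Gstcd, had means of 1.93 to 8.74 scaled TPM. Gsta1, Gsta3, Gstm5 and Gstt3 were named after their values were seen.

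**Figure D4:**
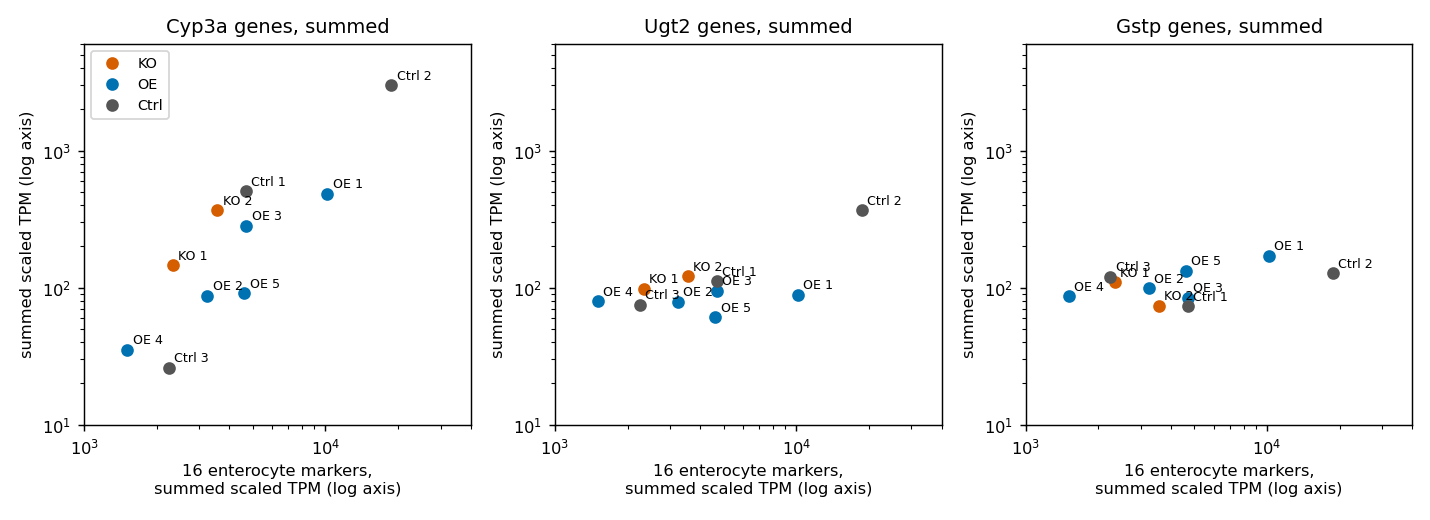
Summed scaled TPM of the Cyp3a, Ugt2 and Gstp genes (vertical, log axis) against the sum of 16 enterocyte markers (horizontal, log axis), 1 labelled point per library, coloured by group. Ctrl 2 has the highest marker sum, with a Cyp3a sum of 3011 and a Ugt2 sum of 368. In the other 9 libraries the Cyp3a sum runs from 26.0 to 504 and the Ugt2 sum from 60.7 to 121. The Gstp sum lies between 72.9 and 171 over all libraries.

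The comparison of KO with Ctrl asks whether loss of epithelial Stat5 alters these enzymes, and 0 of the 52 genes passed the limma test at an adjusted p of 0.05, as did 0% of the 13056 genes tested. Their adjusted p ran from 0.943 to 0.997. At an unadjusted p under 0.05, 0 enzyme genes were higher in KO (1.94% of all genes were) and 1 was lower (1.52% of all genes). The lower one was Gstm1, with a log2 difference of -1.84 (95% interval -3.62 to -0.060, limma adjusted p = 0.943), averaging 4.51 ± 0.264 scaled TPM in KO and 28.2 ± 31.8 in Ctrl (SD, n = 2 and 3). Gstm6 had -1.79 (-3.98 to 0.40) and Cyp2d26 -2.55 (-5.40 to 0.30). In the other direction the smallest p were those of Cyp4f40 at 0.45 (-0.15 to 1.06), Gstp1 at 0.39 (-0.27 to 1.04) and Gstp3 at 0.50 (-0.71 to 1.72). The limma adjusted p was 0.943 for all 5 of these genes.

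KO and Ctrl did not overlap for 3 enzyme genes with KO higher (Cyp4f18, Cyp4f40 and Gstp1; 9.09% of all genes, 5.77% of the enzyme genes) and 5 with KO lower (Gsta1, Gstm1, Gstm6, Gstt1 and Cyp4f16; 7.27% of all genes, 9.62% of the enzyme genes). The first share is below that of all genes and the second above it. On the deposited TPM, where Ctrl 2 was the lowest library for 73.7% of all genes, the counts were 2 higher (Ugt2b35 and Ugt2b36; 8.44% of all genes, 3.85% of the enzyme genes) and 4 lower (Gsta1, Gstm1, Gstm6 and Gstt1; 1.47% of all genes, 7.69% of the enzyme genes). The log2 difference was negative for 40 of 52 genes, with a median of -0.47, against 0.038 over all genes. Without Ctrl 2, 21 of 51 were negative and the median was 0.084, against 0.0073 over all genes. Thus the lower median rested on that library: without it Gstm1 had -0.98 (-2.34 to 0.37), Gstm6 -0.66 and Cyp2d26 -1.17. On the deposited TPM the median over the 52 genes was 0.016, with 0.38 over all genes. Gstt1 and Cyp4f16 were named after their values were seen.

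For OE against Ctrl, again 0 of 52 genes passed the limma test, as did 0% of all genes, with adjusted p of the enzyme genes from 0.755 to 0.997. At an unadjusted p under 0.05, 1 enzyme gene was higher in OE (3.79% of all genes were) and 5 were lower (2.31% of all genes; 9.62% of the enzyme genes). The higher one was Cyp4f18, with a log2 difference of 1.26 (0.021 to 2.50, limma adjusted p = 0.755), the gene that met the minimum only with the OE libraries. The lower ones were Ugt1a7c at -0.88 (-1.61 to -0.15), Ugt2b5 at -1.13 (-2.10 to -0.15), Gstm7 at -0.94 (-1.76 to -0.11), Ugt2b36 at -1.11 (-2.10 to -0.11) and Cyp2c66 at -3.13 (-6.07 to -0.19), each at the same limma adjusted p. Without Ctrl 2 the difference of Ugt1a7c was -0.41 (-0.90 to 0.083), that of Ugt2b5 -0.50 (-1.17 to 0.18), that of Gstm7 -0.43 (-1.04 to 0.18), that of Ugt2b36 -0.53 (-1.33 to 0.28) and that of Cyp2c66 -1.40 (-3.83 to 1.04), so the interval of each then spanned 0. That of Cyp4f18 was 1.35 (-0.23 to 2.94). Gstp1 had 0.48 (-0.037 to 1.01) and Gstp3 0.83 (-0.14 to 1.80), both positive.

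OE and Ctrl did not overlap for 1 enzyme gene with OE higher (Cyp4f18; 2.21% of all genes, 1.92% of the enzyme genes) and 4 with OE lower (Ugt1a7c, Gstm7, Gstt3 and Cyp2s1; 1.52% of all genes, 7.69% of the enzyme genes). They were on the deposited TPM 1 higher (Cyp4f18; 1.78% of all genes, 1.92% of the enzyme genes) and 1 lower (Ugt2b5; 0.237% of all genes, 1.92% of the enzyme genes), so the place of the 4 lower genes below all Ctrl libraries depended on the scaling. On the deposited TPM every OE library stayed below Ctrl 1 and Ctrl 3 for Ugt1a7c, Gstm7 and Gstt3, but not every one below Ctrl 2. For Cyp2s1, OE 2 lay above Ctrl 1. The log2 difference was negative for 43 of 52 genes, with a median of -0.74, against 0.021 over all genes. With deposited TPM, 34 of 52 were negative and the median was -0.26, with 0.36 over all genes. Without Ctrl 2, 29 of 51 were negative and the median was -0.11, against -0.010 over all genes. The comparisons of KO and of OE with Ctrl share the Ctrl libraries and are not independent.

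**Figure D5:**
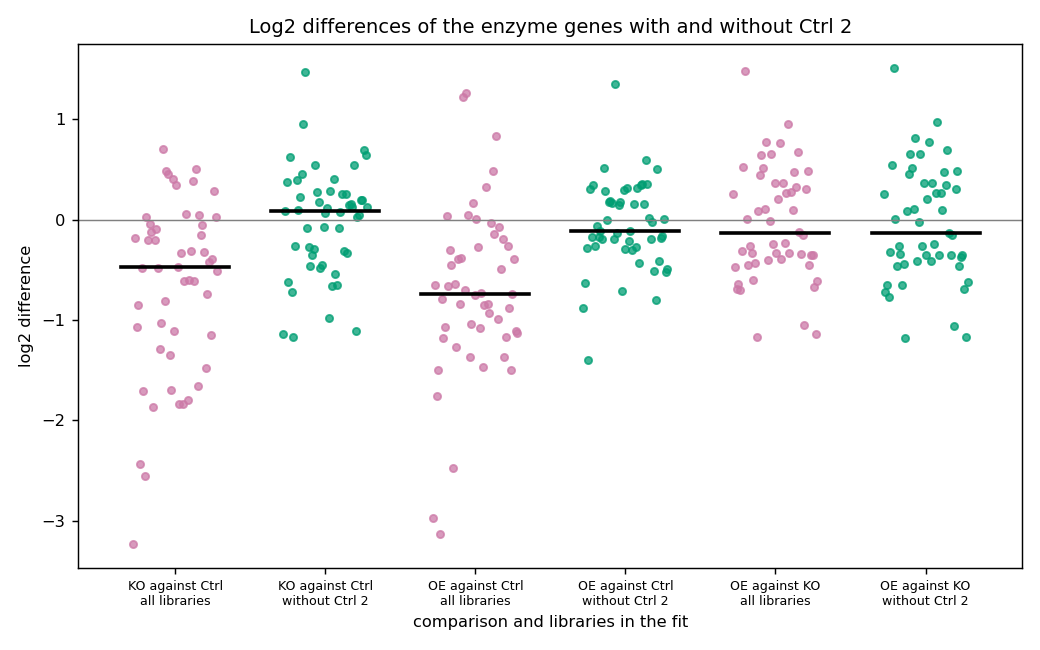
Log2 difference of each enzyme gene (vertical; each point a gene, each bar the median) in the 3 comparisons, fitted with all libraries (52 genes) and without Ctrl 2 (51 genes). The medians of KO against Ctrl and OE against Ctrl are -0.47 and -0.74 with all libraries and 0.084 and -0.11 without Ctrl 2; those of OE against KO are -0.14 and -0.13.

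OE against KO, the widest contrast in Stat5 itself, does not draw on the Ctrl libraries except through the shared estimate of spread and the scaling. Here too 0 of 52 genes passed the limma test (0% of all genes), each at an adjusted p of 1, and 0 reached an unadjusted p under 0.05 in either direction, against 1.62% of all genes higher and 1.33% lower. OE and KO did not overlap for 0 enzyme genes with OE higher (4.04% of all genes) and for 8 with OE lower, which is 15.4% of the enzyme genes against 4.43% of all genes. The 8 were Ugt2b34, Ugt2b35, Ugt2b36, Ugt2b5, Ugt1a7c, Cyp2j6, Cyp4f40 and Gstt3. All but Cyp4f40, 7 in all, kept this order on the deposited TPM, which is 13.5% of the enzyme genes against 3.63% of all genes, with 0 enzyme genes higher against 3.09%. Ugt2b34, Ugt2b35, Ugt2b36 and Ugt2b5 are neighbouring paralogs, and the division of reads among them is uncertain. They may therefore not be independent, and the shares of lower genes rest in large part on them. Cyp2j6, an arachidonic acid epoxygenase of the gut, had 23.0 and 20.3 scaled TPM in KO, 17.4, 14.0, 18.1, 13.5 and 15.1 scaled TPM in OE and 18.4, 59.0 and 14.3 scaled TPM in Ctrl, and was named after its values were seen.

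The largest of these log2 differences was that of Ugt2b36 at -1.14 (95% interval -2.28 to 0.0057, limma adjusted p = 1), averaging 2.61 ± 1.06 scaled TPM in OE and 6.62 ± 0.119 in KO (SD, n = 5 and 2). Without Ctrl 2, it was -1.17 (-1.98 to -0.37), with an unadjusted limma p of 0.0090 and a limma adjusted p of 0.905. Ugt2b35 had -0.67 (-1.66 to 0.32) and Cyp4f40 -0.41 (-0.96 to 0.15). The log2 difference was negative for 5 of 5 Ugt2 genes, with a median of -0.61, and positive for 3 of 3 Gstp genes and 5 of 7 Cyp4 genes. On the positive side Cyp2d26 had 1.48 (-1.13 to 4.09), Cyp4f18 0.77 (-0.65 to 2.19) and Cyp4f13 0.65 (-0.59 to 1.88). Over the 52 genes 24 were positive and 28 negative, with a median of -0.14, against -0.00062 over all genes. With all libraries every interval spanned 0, that of Ugt2b36 only just. KO has 2 libraries, and Ctrl 2 enters the shared estimate of spread. Cyp2j6 had -0.45 (-1.43 to 0.53) with all libraries and -0.46 (-0.94 to 0.024) without Ctrl 2.

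Promoter motifs of the known regulators were counted in the 48 matched promoters, on both strands of the 250 bases before the start. The core of the aryl hydrocarbon receptor site, GCGTG, was in 9 (18.8%), against 28.2% of all 32851 promoters. The NRF2 pattern TGACNNNGC was in 3 (6.25%), against 10.2%. The STAT pattern TTCNNNGAA was in 4 (8.33%), against 7.02%, and the HNF4 pattern CAAAGTCCA in 4 (8.33%), against 0.384%. The STAT pattern was found in Cyp4b1, Cyp4f13, Gsta1 and Ugt1a6a, and the HNF4 pattern in Cyp2c40, Cyp2c65, Cyp2c68 and Cyp3a11. Cyp2c40, Cyp2c65 and Cyp2c68 are paralogs that lie on chromosome 19 between 39061015 and 39812814. Their matches may therefore not be independent, and the share of the HNF4 pattern rests mostly on them. Of the STAT and the HNF4 pattern 2 promoters each are given with the match in capitals, at chr9:78230419-78230668 on the plus strand for Gsta1, chr1:88134559-88134808 on the plus strand for Ugt1a6a, chr19:39060756-39061005 on the plus strand for Cyp2c65 and chr5:145879855-145880104 on the minus strand for Cyp3a11 (RefSeq, GRCm38.p6).
Gsta1: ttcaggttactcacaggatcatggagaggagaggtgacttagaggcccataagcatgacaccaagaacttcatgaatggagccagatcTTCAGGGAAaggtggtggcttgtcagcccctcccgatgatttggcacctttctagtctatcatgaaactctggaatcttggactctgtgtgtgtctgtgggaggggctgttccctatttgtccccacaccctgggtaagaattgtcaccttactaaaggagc
Ugt1a6a: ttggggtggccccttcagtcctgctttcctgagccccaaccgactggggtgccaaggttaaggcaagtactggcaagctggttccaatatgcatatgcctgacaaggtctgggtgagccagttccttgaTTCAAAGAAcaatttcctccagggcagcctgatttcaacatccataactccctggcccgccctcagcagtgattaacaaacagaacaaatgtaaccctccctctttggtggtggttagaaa
Cyp2c65: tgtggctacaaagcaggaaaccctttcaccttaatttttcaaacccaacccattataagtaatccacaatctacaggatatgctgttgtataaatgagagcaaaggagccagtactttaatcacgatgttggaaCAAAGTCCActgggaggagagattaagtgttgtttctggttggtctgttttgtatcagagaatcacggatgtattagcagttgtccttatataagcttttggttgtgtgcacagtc
Cyp3a11: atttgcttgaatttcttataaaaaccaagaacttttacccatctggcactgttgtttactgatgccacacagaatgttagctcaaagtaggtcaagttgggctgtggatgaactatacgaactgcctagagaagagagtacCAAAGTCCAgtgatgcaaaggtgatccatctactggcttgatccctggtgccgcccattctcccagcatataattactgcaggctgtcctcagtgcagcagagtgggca
A match is a run of letters and not a measured site. The start used for Cyp3a11 lies 110 bases downstream of its start in the GENCODE annotation. Its match, at -109 to -101, therefore lies within the GENCODE gene.

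Of 77 further genes of the pathway (receptors, cofactor and conjugate supply, other drug-metabolising enzymes and exporters), 70 were tested and 0 passed the limma test in any comparison. For KO against Ctrl 23 were positive and 47 negative with a median log2 difference of -0.28, and without Ctrl 2 36 and 34 with a median of 0.013. For OE against Ctrl the split was 18 and 52 with -0.36, and without Ctrl 2 34 and 36 with -0.0047. For OE against KO it was 33 and 37 with -0.034. At an unadjusted p under 0.05 there were 2 higher and 0 lower in KO against Ctrl (1.94% and 1.52% of all genes). There were 1 and 3 in OE against Ctrl (3.79% and 2.31%), and 1 and 1 in OE against KO (1.62% and 1.33%). The gene higher in OE against Ctrl was Hmox1, listed at 0 in all Ctrl libraries. It met the minimum without them, so its place above Ctrl follows in part from how the genes were kept.

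Among the regulators, Hnf4a was the most even, with 82.0 and 81.0 scaled TPM in KO, 72.9, 82.0, 84.3, 85.0 and 71.7 scaled TPM in OE and 81.9, 64.6 and 94.6 scaled TPM in Ctrl. Nr1i3, which encodes CAR, had 1.19 and 2.31 scaled TPM in KO, 2.80, 1.60, 2.47, 0.657 and 2.00 scaled TPM in OE and 5.74, 23.4 and 1.07 scaled TPM in Ctrl. The 2 libraries with the highest Nr1i3 level, Ctrl 2 and Ctrl 1, also had the most Cyp2b10. Ctrl 2 was, however, the highest for 44 of the 70 tested pathway genes on this scale. Whether the levels of Nr1i3 and Cyp2b10 are linked was not tested. Nr1i2, which encodes PXR, had 11.6 and 18.2 scaled TPM in KO, 17.7, 10.4, 12.8, 9.45 and 15.1 scaled TPM in OE and 13.6, 23.4 and 12.0 scaled TPM in Ctrl. Ahr lay between 1.14 and 3.54 scaled TPM, and Nfe2l2, which encodes NRF2, between 39.6 and 194 scaled TPM with Ctrl 2 highest on that scale. The largest log2 difference of a regulator was that of Nr1i3, -1.37 (-3.17 to 0.42) for KO and -1.32 (-2.76 to 0.11) for OE against Ctrl, and neither passed the limma test.

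Of the other pathway genes Mgst1, a membrane-bound glutathione transferase, had 361 and 569 scaled TPM in KO, 371, 319.7, 258, 209 and 227 scaled TPM in OE and 319, 204 and 246 scaled TPM in Ctrl, a log2 difference of 0.84 (0.060 to 1.63) for KO against Ctrl and -0.74 (-1.46 to -0.023) for OE against KO. KO 2 was the highest library and KO 1 lay below OE 1, so KO and OE overlapped. Fmo4, a flavin monooxygenase, had 43.1 and 42.3 scaled TPM in KO, 27.7, 26.6, 32.9, 22.1 and 24.3 scaled TPM in OE and 48.5, 83.7 and 31.0 scaled TPM in Ctrl. As for the Ugt2b genes, every OE library was below both KO libraries; the difference was -0.90 (-1.55 to -0.25) against Ctrl and -0.67 (-1.41 to 0.077) against KO. Hmox1, the haem oxygenase induced by NRF2, was at or under 3.23 scaled TPM throughout and listed at 0 in the 3 Ctrl libraries, and Maff, a small Maf partner of NRF2, had 1.62 and 1.75 scaled TPM in KO, 5.99, 3.43, 4.60, 2.55 and 7.94 scaled TPM in OE and 2.55, 2.44 and 3.63 scaled TPM in Ctrl, so that OE lay above KO in every library. The carboxylesterase Ces1f had -1.09 (-1.94 to -0.24, limma adjusted p = 0.755) for OE against Ctrl. The aldo-keto reductase Akr1b8 had 0.94 (0.00046 to 1.88, limma adjusted p = 0.943) for KO against Ctrl. None of the genes named here passed the limma test in any comparison. OE lay wholly below KO, as for Fmo4, in 4.43% of all genes tested, and wholly above KO, as for Maff, in 4.04%.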

How the data were processed

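Total RNA of ileal crypts was sequenced single-end. The crypts were shaken off the tissue in PBS with 10 mM EDTA, per the labels' protocols. The deposited values are TPM for 28987 Ensembl gene IDs in each library, computed by the authors before deposit, per the file headers of 9 of the 10 libraries. Ctrl 1 has a header without a unit; its gene list and its sum match those of the others. The submitters' processing notes name TopHat, Cufflinks and the mouse build mm10, with no versions; the annotation and strand handling used are not stated there. Read numbers cannot be had from TPM, which leaves the depth unknown and gives no counting interval or floor.

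Symbols, gene classes and coordinates came by ID from GENCODE M21 (GRCm38). Log2(scaled TPM + 1) was tested in limma 3.58.1 (R 4.3.3) with an intensity trend. All 10 libraries entered 1 fit of 3 group means, for genes at 1 TPM or more in at least 2 libraries. P-values were adjusted by Benjamini-Hochberg over all 13056 genes, with a threshold of 0.05. Differences of low genes come out too small on this scale because of the pseudocount of 1. Tables and figures were made with Python 3.11.15, pandas 2.3.3, numpy 2.4.6 and matplotlib 3.10.9, and the fit was tested on simulated data.

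Described by level were the 16 enzyme genes with the highest mean. Described by test were the 3 with the smallest p in each direction of each comparison, and Cyp1a1, Cyp1b1, Cyp2e1, Cyp3a11 and Cyp3a13 whatever their values. The enzyme genes and all lists were chosen with earlier results of these data known. Alternatives were other scalings, pseudocounts, minimums, spread models, the replicate number as a block and libraries left out.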

Additional observations from a re-analysis of the deposited data

How the results depend on the processing

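No enzyme gene passed the limma threshold under any alternative, where 13 alternatives and 10 fits without 1 library were run. The main count of called genes over the whole series was 0 in each comparison. KO against Ctrl had 452 genes at an unadjusted p under 0.05; it gave 5 called genes with no filter and 1 with only the groups compared, and 0 to 2 with a library left out (2 without KO 1, 1 without OE 3). OE against Ctrl had 797 such genes; it gave 1 called gene with only the groups compared, 3 with the replicate block and 1 without the libraries low in Y-linked transcripts, and 0 to 1 with a library left out (1 without KO 1 or KO 2). OE against KO had 385; it gave 7 called genes with no filter, 1 without the low Y-linked libraries, 1 without Ctrl 2 and OE 1, and 0 to 2 with a library left out (2 without KO 1, 1 without OE 1 or OE 3).

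Signs of the Cyp3a genes turned. For KO against Ctrl, Cyp3a25 had log2 differences of 0.45 on deposited TPM, 0.0019 with nuclear TPM rescaled, 1.47 without Ctrl 2 and OE 1, and -2.18 to 1.47 with a library left out. Cyp3a11 had 0.47 without Ctrl 2 and OE 1, and -4.60 to 0.45 with a library left out. Cyp3a13 had 0.33 on deposited TPM, 0.26 with library weights, 0.95 without Ctrl 2 and OE 1, and -1.25 to 0.95 with a library left out. Gstp3 ranged from -0.015 to 1.02 with a library left out. For OE against Ctrl, Cyp3a25 ranged from -3.36 to 0.29 and Cyp3a13 from -1.68 to 0.51 with a library left out, and Cyp3a13 had 0.22 without Ctrl 2 and OE 1. The cause was not tested, beyond the libraries left out. The other 533 comparisons of a named gene with an alternative kept their sign and their side of the threshold.

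Deviations of same-numbered libraries from their group means correlated by -0.17 and 0.063 (KO and Ctrl) and by -0.13, -0.052 and -0.18 (OE and Ctrl). For OE and KO the correlations were 0.060 and -0.084. The deviations of the 2 KO libraries mirror each other, so this check cannot show whether replicate numbers pair the samples. Depth is unknown, and groups of 2, 3 and 5 libraries limit what differences could be detected.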

Other observations

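Of the 70 other genes of drug metabolism and export that were tested, 44 (62.9%) had their highest scaled level in Ctrl 2, against 23.5% of all genes tested. For the deposited TPM, 8 (11.4%) did, against 1.62% of all genes. Ephx2, the soluble epoxide hydrolase that acts on products of Cyp2c and Cyp2j enzymes, had 376 scaled TPM in Ctrl 2 and 4.56 to 27.4 in the other 9 libraries. Adh1, an alcohol dehydrogenase, had 287 scaled TPM in Ctrl 2 and 7.04 to 19.0 in the other 9 libraries. Abcc2, the exporter of glucuronide and glutathione conjugates, had 369 scaled TPM in Ctrl 2 and 5.37 to 63.1 in the other 9 libraries. Aldh1a1, which makes retinoic acid, had 317 scaled TPM in Ctrl 2 and 12.5 to 95.5 in the other 9 libraries. Ctrl 2 was again the highest for these 4 genes on the deposited TPM, with 111 TPM against at most 27.3 for Ephx2, 84.6 against 22.9 for Adh1, 109 against 77.1 for Abcc2 and 93.5 against 79.4 for Aldh1a1. Ugdh, which makes the UDP-glucuronic acid that the Ugt enzymes use, had 444 scaled TPM in Ctrl 2 and 115 to 195 in the other 9 libraries, but on the deposited TPM Ctrl 2 was the lowest, at 131 TPM against 136 to 188. These 5 genes were picked after their values were seen.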
